A study of Rattus norvegicus with 3 samples.

Results

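Carbonic anhydrases were followed in whole rat testis on postnatal days 6, 8 and 10. The family was listed as 8 genes by symbol (Car12, Car2, Car3, Car4, Car5a, Car8, Car9 and Car14), chosen with earlier results of these arrays known. By RefSeq accession, 6 of the 8 were matched to a probe set, with 1 probe set each, among 26419 probe sets in all; Car9 and Car14 were not matched and are not analysed here. Testes of Wistar-Imamichi rats, with the day of birth counted as day 1, gave total RNA for 1 one-colour array per day. The groups were therefore day 6 (1 array), day 8 (1 array) and day 10 (1 array), with no treatment named in the labels, which also do not give how many animals each RNA held. The stated aim was expression early in testis development, screened at 2-fold between days.

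Carbonic anhydrases interconvert carbon dioxide and bicarbonate, and so set how fast acid and base are exchanged inside cells, in mitochondria and at the outer cell surface. The members differ in place: Car2 and Car3 are cytosolic, Car5a is mitochondrial, Car4 is held to the outer membrane by a lipid anchor, and Car9, Car12 and Car14 span the membrane with the enzyme domain outside. Car8 keeps the fold of the family but lacks the enzyme activity. In the male tract, bicarbonate and proton handling is best known from the efferent ducts and epididymis, where several of these enzymes occur.

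Since a day had 1 array, the spread between animals or arrays is unknown, differences have no replicate check, and no p-values were computed. Effects of age cannot be separated from those of the animals or of the array, and in whole tissue fewer cells of a type and less RNA per cell cannot be told apart either. Levels are log2 intensities of the authors' normalized values, and each difference is the later day minus the earlier one. Genes had to exceed the floor of the array on one or both days compared, the floor being the array median (log2 7.78 on day 6, 7.79 on day 8 and 7.67 on day 10, or intensities of 220, 221 and 203). Olfactory and vomeronasal receptors had median log2 levels of 4.59, 4.58 and 4.67 and 95th percentiles of 5.70, 5.60 and 6.11 on days 6, 8 and 10. As a guide to error within an array, the log2 differences of separate probe sets for one gene had a pooled SD of 0.28 over 64 genes between days 8 and 6. That SD was 0.46 over 67 genes between days 10 and 8, and 0.41 over 66 genes between days 10 and 6. Markers of testis cells were all above the floor on every day: Amh of Sertoli cells, Star and Cyp17a1 of Leydig cells, Ddx4 of germ cells and Acta2 of peritubular cells.

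Car12, the transmembrane enzyme known as a target of hypoxia-inducible factor, had the largest difference of the 6 matched members. Intensities of 1412, 755 and 139 were read on days 6, 8 and 10. On the log2 scale these are 10.46, 9.56 and 7.12, so the probe set was well above the floor on days 6 and 8 and under it on day 10. It still lay above the 95th percentile of the receptors on day 10. Between days 10 and 6 the measured difference was -3.35 (10.2-fold lower), or at least 6.94-fold lower when day 10 is set at the floor. Of 13955 genes compared, 7 had a more negative value.

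The difference of Car12 was unequal in its 2 steps. Day 8 was 1.87-fold lower than day 6 (-0.90), short of 2-fold, and 183 of 13496 genes had a more negative difference. Day 10 was 5.43-fold lower than day 8 (-2.44), or at least 3.71-fold against the floor, with 106 of 13969 genes more negative. Genes spread far more widely in the second step: 1.5% of genes differed by at least 2-fold between days 8 and 6, against 22.3% between days 10 and 8 and 21.4% between days 10 and 6. Car12 was therefore among the more negative genes in both steps. The values that selected this gene are the same as those given here, so they are a description.

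**Figure D1:**
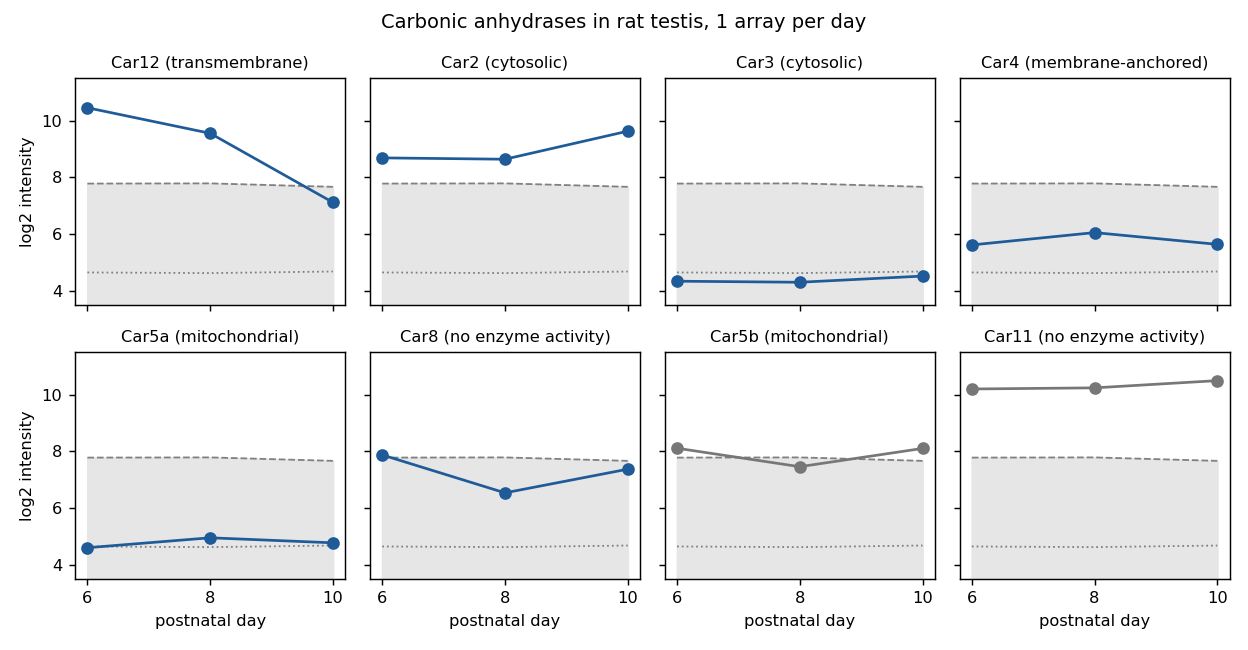
Log2 intensity (vertical axis) of the 6 matched members (blue) and of 2 further carbonic anhydrases (grey) on postnatal days 6, 8 and 10 (horizontal axis), each point being 1 array. The shaded area lies under the array's floor (dashed line) and the dotted line is a random-sequence control; Car12 lies at 7.12 on day 10, under the floor, against 10.46 on day 6, while Car2 reaches 9.64 on day 10.

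The promoter of Car12 is shown because this gene has the largest difference of the family and is a known hypoxia target. It covers 250 bases before and 50 after the annotated start (RefSeq, GRCr8, chr8:76169565-76169864, plus strand). Capitals mark the core of the hypoxia response element, searched as ACGTG or GCGTG on both strands:
Car12: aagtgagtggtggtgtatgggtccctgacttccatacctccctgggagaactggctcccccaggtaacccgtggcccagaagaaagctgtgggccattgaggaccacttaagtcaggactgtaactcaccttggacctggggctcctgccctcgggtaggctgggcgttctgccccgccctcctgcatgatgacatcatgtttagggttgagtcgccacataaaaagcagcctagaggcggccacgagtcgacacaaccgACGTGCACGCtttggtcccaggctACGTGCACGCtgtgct
The window held 4 matches, as 2 adjacent pairs, all after the start. Of 33469 promoters of the same length, 41.6% held at least 1 match, so the letters are common. Of the other matched members with a promoter in the table, Car4 held 2 matches and Car5a 0. A match describes the letters only, and binding was not measured.

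Car2, the fast cytosolic enzyme abundant in red cells and in many acid- or base-secreting epithelia, differed in the opposite direction. Intensities of 414, 400.1 and 796 were read on days 6, 8 and 10, above the floor on all 3 days (log2 8.69, 8.64 and 9.64). Days 8 and 6 were close (-0.05), and day 10 stood above both. The difference was 0.99 between days 10 and 8 (1.99-fold higher) and 0.94 between days 10 and 6 (1.92-fold higher), just short of 2-fold. After median centring of the arrays the values were 1.11 and 1.06, so whether Car2 counts as 2-fold higher depends on the scaling. Between days 10 and 6, 1358 of 13955 genes had a more positive difference.

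Car8, known for binding the inositol trisphosphate receptor in cerebellar Purkinje cells, had its lowest value on day 8. It had an intensity of 235 on day 6, 92.9 on day 8 and 166 on day 10 (log2 7.88, 6.54 and 7.37). Only the day 6 value was above the floor, by 0.10. The difference was -1.34 between days 8 and 6 (2.53-fold lower as measured) and 0.84 between days 10 and 8, where both values were under the floor. With day 8 set at the floor, the difference was at least 1.06-fold. The call of a 2-fold difference for Car8 therefore rests on intensities under the floor, which is the array median. Car8 lay above the 95th percentile of the receptors on every day. With the floor set at that percentile, it was still called lower on day 8 than on day 6.

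The other 3 matched members stayed under the floor on every day. Car4, which faces the lumen of capillaries and epithelia, had log2 levels of 5.61, 6.05 and 5.64 on days 6, 8 and 10. On day 8 Car4 was above the 95th percentile of the receptors (5.60), and on days 6 and 10 it was under it (5.70 and 6.11). Car5a, the liver-type mitochondrial enzyme, had 4.60, 4.95 and 4.77. Car3, abundant in skeletal muscle, liver and fat, had 4.33, 4.30 and 4.51, under the random-sequence control (4.64, 4.62 and 4.68) on all 3 days. No fold is given for these 3 genes, since both sides of each comparison were under the floor. Car2 and Car3 are direct neighbours on chromosome 2 in the RefSeq gene table of GRCr8, followed by Car1 and Car13; of this cluster Car2 was above the floor and Car3 was not, and Car1 and Car13 were not matched.

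**Figure D2:**
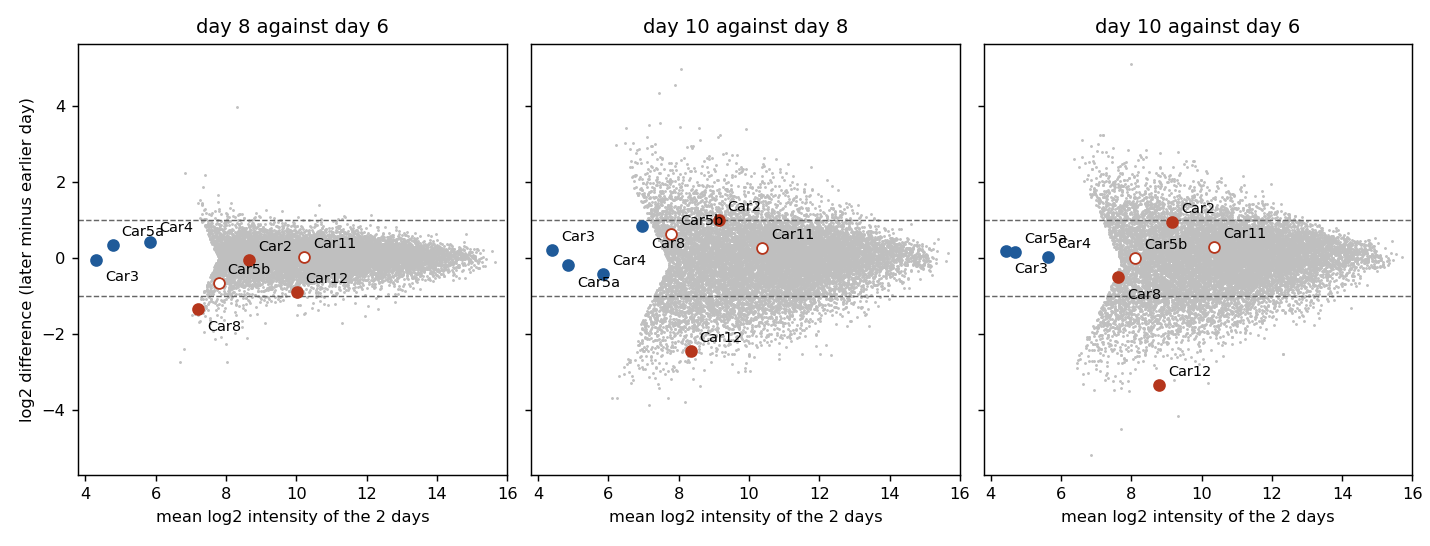
Log2 difference (vertical axis, later minus earlier day) against the mean log2 intensity of the 2 days (horizontal axis) for the genes compared (grey points), with carbonic anhydrases marked. Filled points are members and open points Car5b and Car11; red points exceeded the floor on one or both days and blue points on neither, and dashed lines mark 2-fold. Car12 lies at -3.35 for day 10 against day 6, outside most of the grey points, and Car2 lies at the upper 2-fold line in both comparisons with day 10.

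By count, 3 of the 6 matched members entered the comparison of day 10 with day 6, and 1 (Car12) was at least 2-fold lower and 0 were higher, beside 12.8% of all genes compared lower and 8.57% higher. Between days 10 and 8, 2 entered and 1 (Car12) was lower, beside 13.7% of genes lower and 8.56% higher. Between days 8 and 6, 3 entered and 1 (Car8) was lower, beside 0.978% of genes lower and 0.519% higher. The members were chosen from these contrasts, and nothing is read from the counts. Centring each array on its median moved the share of lower genes among those differing by 2-fold to 49.8%, against 59.9% as deposited, between days 10 and 6. Between days 10 and 8 the share was 51.5% after centring, against 61.6% as deposited. It moved the median difference of all genes compared to 0.14, against 0.02 as deposited, between days 10 and 6, and to 0.11, against -0.01 as deposited, between days 10 and 8.

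Of 8 further carbonic anhydrases listed by symbol, 2 were matched. Car11, a relative without enzyme activity, had log2 levels of 10.21, 10.25 and 10.50 on days 6, 8 and 10, above the floor throughout. Its difference of 0.30 between days 10 and 6 was within the probe set spread. Car5b, the mitochondrial enzyme of wider tissue range, had 8.12, 7.46 and 8.11, and its day 8 value was under the floor. Its differences of -0.65 between days 8 and 6 and 0.65 between days 10 and 8 were both short of 2-fold. Car5b and Car8 both had their lowest value on day 8, and both of these values were under the floor. Ptprg, a receptor phosphatase with a carbonic anhydrase-like domain, had 10.00, 9.72 and 9.30 (-0.70 between days 10 and 6). Its gene spans 684 kb, and with the trend of the difference with genomic span subtracted the value was -0.06. Ptprz1, of the same kind, was under the floor on all 3 days.

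Over the named genes above the floor on day 6 or day 10, the difference between these days moved with genomic span. Spearman's rho was -0.43 over 5518 genes, a relation across genes, which are not independent replicates. Car12 spans 55.7 kb, and with the trend subtracted its difference was -2.98. Car2 spans 15.1 kb and had 0.91 with the trend subtracted. Car8 spans 97.1 kb, and its difference of -0.50 between days 10 and 6 became -0.03, while its difference between days 8 and 6 was -1.33. The order of Car12 below Car8 below Car2 was the same either way for day 10 against day 6.

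**Figure D3:**
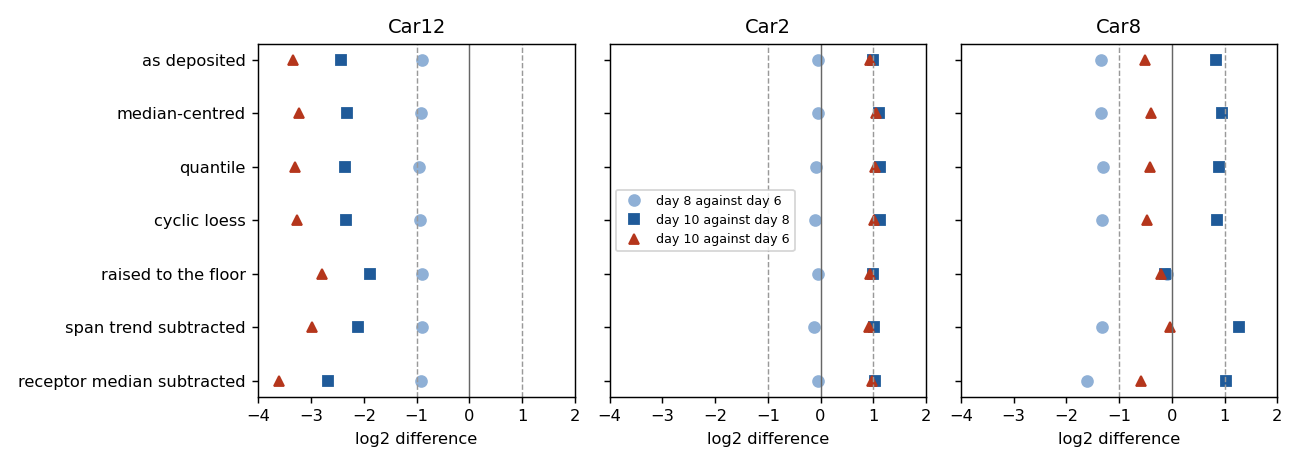
Log2 difference (horizontal axis) of Car12, Car2 and Car8 for each pair of days (symbols), as deposited and under 6 other treatments of the values (rows); dashed lines mark 2-fold. Car12 stays between -3.61 and -2.80 for day 10 against day 6, Car2 crosses the 2-fold line with the scaling, and Car8 loses its difference when values are raised to the floor.

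The 3 named genes nearest to Car12 in pattern were Phex, Gja5 and Egr3. Nearness was the Euclidean distance between the 3 log2 levels after centring each gene on its mean. It was taken over 5562 named genes above the floor on at least 1 day, leaving out numbered placeholder symbols (LOC and RGD). Phex, an endopeptidase of phosphate metabolism, had 9.43, 8.67 and 6.00 on days 6, 8 and 10 (distance 0.17). Gja5, a connexin of vascular cells, had 10.83, 9.80 and 7.62 (distance 0.18). Egr3, an immediate early transcription factor, had 8.27, 7.66 and 4.95 (distance 0.23). All 3 were under the floor on day 10, like Car12. For Car8 the nearest were the chemokine Ccl11 (8.39, 7.03 and 7.76, distance 0.097), the glucuronosyltransferase Ugt1a2 (7.84, 6.37 and 7.33, distance 0.10) and Tmem54 (9.76, 8.60 and 9.51, distance 0.18). With 3 arrays, likeness over 3 points is a description.

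Bicarbonate transporters carry the substrate of these enzymes across membranes. Of 18 listed, 13 were on the array, and 5, 6 and 2 were above the floor on days 6, 8 and 10. Between days 10 and 6, 3 of 5 compared were at least 2-fold lower as measured and 0 higher, beside 12.8% of all genes lower and 8.57% higher. All 3 entered through day 6 alone, so these calls rest on day 10 values under the floor. The median over the 5 was -1.14, beside 0.02 over all genes compared. The sodium bicarbonate cotransporter Slc4a7 had 8.09, 8.36 and 6.56 (at least 1.34-fold lower on day 10 than on day 6). Slc4a1, band 3 of the red cell, had 8.47, 8.50 and 7.16 (at least 1.75-fold lower). Slc4a4, a further sodium bicarbonate cotransporter, named after its values were seen, had 8.64, 8.07 and 7.50. The anion exchangers Slc4a2 and Slc4a3, also named after their values were seen, were above the floor on all 3 days, with differences of 0.48 and 0.39. With the span trend subtracted, 2 members were lower in place of 3, and the median over the 5 was -0.53.

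Proton pumps and exchangers move the other product of the reaction. Of 21 vacuolar proton pump genes listed, 15 were on the array and 13 above the floor, with 1 of the 13 at least 2-fold lower on day 10 than on day 6 and 0 higher, beside the same 12.8% and 8.57% of all genes. That was Atp6v0a1, a membrane subunit (12.81, 12.71 and 11.43 on days 6, 8 and 10, 2.60-fold lower). The median difference was 0.10, beside 0.02 over all genes compared, and -0.06 with the span trend subtracted. Of 11 sodium-proton exchangers and their scaffolds, 7 were on the array and 4 above the floor. Slc9a8, an exchanger of the Golgi, was at least 1.73-fold lower on day 10 than on day 6 (8.46, 8.63 and 7.17), and was under 2-fold with the span trend subtracted. It was the 1 of these 4 at least 2-fold lower as measured, with 0 higher, beside 12.8% and 8.57% of all genes. This call rests on a day 10 value under the floor. The median over the 4 was -0.66, beside 0.02 over all genes compared.

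Lactate and hypoxia genes were listed because lactate leaves cells with a proton and Car12 is a hypoxia target. Of 6 monocarboxylate transporter genes, 4 were above the floor, with 1 of the 4 at least 2-fold lower and 0 higher between days 10 and 6, beside 12.8% and 8.57% of all genes. The median was -0.50, beside 0.02 over all genes compared. With the span trend subtracted, 1 of the 4 was at least 2-fold higher and 1 lower, with a median of -0.54. The lower gene as deposited was Slc16a3, a lactate exporter of glycolytic cells, with 9.23, 7.27 and 7.54 on days 6, 8 and 10. It was at least 2.95-fold lower on day 10 than on day 6. Slc16a3 was under the floor on both days 8 and 10, whereas Car12 was still above it on day 8.

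Of 25 hypoxia genes listed, 23 were on the array, with 23 above the floor on day 6 and 21 on day 10. Those under it on day 10, Egln3 among them, entered through day 6 alone. Between days 10 and 6, 3 of the 23 were at least 2-fold lower as measured and 0 higher. Over all genes compared 12.8% were lower and 8.57% higher, so the count is close to that of all genes. A negative difference was found for 17, with a median of -0.53 beside 0.02 over all genes compared. Epas1, the factor HIF-2 alpha, had 10.83, 11.31 and 9.35 (2.80-fold lower on day 10 than on day 6). Egln3, a prolyl hydroxylase that marks the factor for breakdown, had 8.15, 7.84 and 6.76 (at least 1.40-fold lower). The third was Vhl, of the ligase that removes the factor, named after its values were seen (9.66, 9.75 and 8.37). The glycolytic genes Aldoa, Pgk1 and Eno1, which hypoxia induces, differed by 0.08, -0.14 and -0.10. They were named after their values were seen and do not stand for the list, where 17 of the 23 were negative. With the span trend subtracted the median was -0.34, with 3 lower, and with arrays centred it was -0.41 beside 0.14 over all genes.

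**Figure D4:**
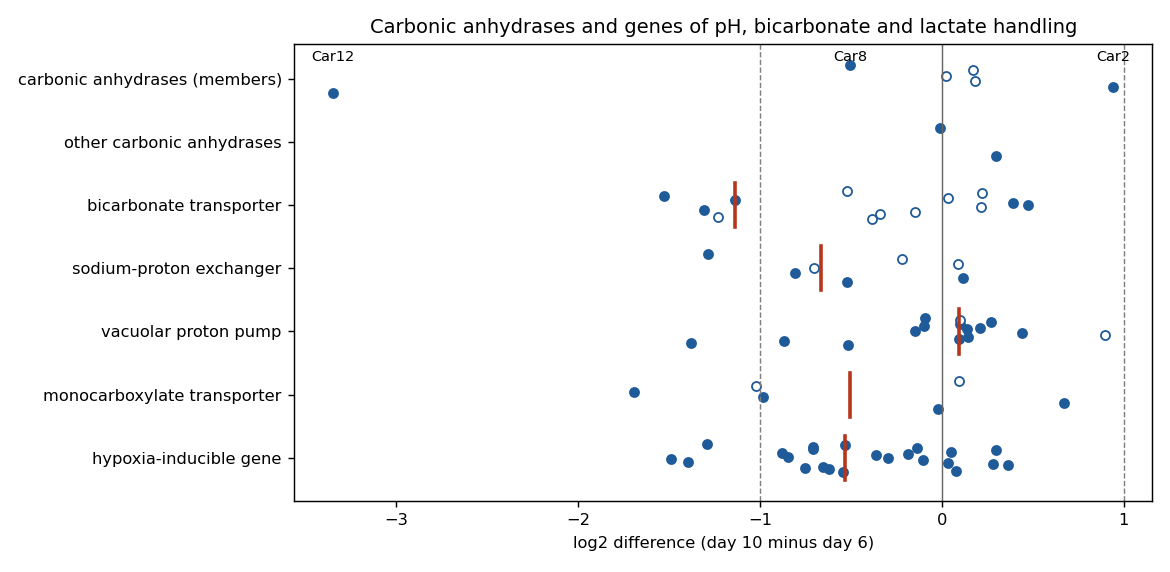
Log2 difference (horizontal axis, day 10 minus day 6) of each gene on the array in 7 lists (rows); filled points were above the floor on day 6 or day 10 and open points on neither, dashed lines mark 2-fold, and red bars are medians of the filled points, drawn for the 5 lists that hold no carbonic anhydrase. Car12 lies at -3.35, left of every other gene drawn, and no gene in these lists is 2-fold higher on day 10.

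Markers of other cells in the sample differed between the days as well, and their part in the results was not tested. Summed intensity was lowest on day 10, as was Car12, for the Leydig, endothelial, peritubular, nerve, and epididymis, rete and mesothelium lists. It was highest on day 10 for the muscle, fat, red cell and germ cell lists. Sums follow the brightest genes: on day 6 Acta2 alone had 40507 of the peritubular sum of 74879. Lists also overlap, so their sums need not be separate readings. Wt1 and Clu were listed both for Sertoli cells and for epididymis, rete and mesothelium. Uchl1 was listed for both nerve and germ cells, and Des for both muscle and peritubular cells. The median difference of the peritubular list between days 10 and 6 was -0.16. The 11 Leydig cell markers summed to intensities of 44401, 40893 and 22241 on days 6, 8 and 10, with 9, 9 and 8 above the floor. Star, which carries cholesterol into mitochondria, was 4.71-fold lower on day 10 than on day 6, Cyp17a1, an enzyme of androgen synthesis, 2.35-fold lower, and the adhesion molecule Vcam1 2.54-fold higher. The 10 endothelial markers summed to 11806, 12180 and 8536, with 8, 8 and 6 above the floor. Gja5 was at least 8.98-fold lower on day 10 than on day 6, and Eng, a coreceptor of endothelial cells, 2.45-fold lower. Of 8 endothelial markers compared between these days, 3 had a positive and 5 a negative difference. Their median was -1.06, beside 0.02 over all genes compared. As measured, 4 of the 8 were at least 2-fold lower and 0 higher, beside 12.8% and 8.57% of all genes.

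The sum and the median of the epididymis, rete and mesothelium list differed in direction. Its 15 markers summed to 34518, 35550 and 31372 on days 6, 8 and 10, with 5, 5 and 7 above the floor. The median difference of 7 genes between days 10 and 6 was 0.48, beside 0.02 over all genes compared. As measured, 2 of the 7 were at least 2-fold higher and 0 lower, beside 8.57% and 12.8% of all genes. The mesothelial marker Msln was 2.53-fold higher on day 10 than on day 6, and the value for Aqp1, a water channel, was at least 1.22-fold higher. Of 8 peritubular markers, which summed to 74879, 70832 and 68375, Pln was at least 3.11-fold higher on day 10 than on day 6, Ptch1 4.60-fold lower and Cald1 2.56-fold lower. The 19 nerve and Schwann cell markers summed to 30374, 33308 and 26510, with 8 above the floor each day. Ngfr, a neurotrophin receptor, was at least 1.41-fold lower and Gap43, a growth cone protein, 2.91-fold lower on day 10 than on day 6. Of 9 nerve markers compared between these days, 4 had a positive and 5 a negative difference. Their median was -0.21, beside 0.02 over all genes compared. As measured, 2 of the 9 were at least 2-fold lower and 0 higher, beside 12.8% and 8.57% of all genes.

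Among lists that bear on Car2 and Car3, skeletal muscle markers stood higher on day 10. The 16 muscle markers summed to 4628, 4491 and 6878 on days 6, 8 and 10. Of 6 above the floor, 3 were at least 2-fold higher on day 10 than on day 6 and 0 lower. Over all genes compared, 8.57% were higher and 12.8% lower. The median difference of the 6 was 1.46, beside 0.02 over all genes compared. Myoglobin (Mb) was at least 3.93-fold higher and the muscle actin Acta1 3.98-fold higher. Car3, which muscle and fat carry, stayed under the random control. The 14 fat cell markers summed to 2670, 3018 and 3230, with 4, 5 and 5 above the floor. Of 6 compared between days 10 and 6, 2 were at least 2-fold higher as measured and 1 lower. The higher genes were Cfd (at least 1.97-fold) and Cebpa (at least 1.19-fold against the floor), and the lower gene was Lpl (at least 1.54-fold). With the span trend subtracted, 0 were at least 2-fold higher and 1 lower. The 11 red cell markers summed to 120264, 121298 and 128999, with 9, 9 and 8 above the floor. Of 9 compared, 1 was at least 2-fold higher (Rhd, 2.37-fold) on day 10 than on day 6. As measured, 1 was at least 2-fold lower (Slc4a1, at least 1.75-fold against the floor). The shares over all genes are those given above.

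Markers of the cords differed in both directions. The 14 Sertoli cell markers summed to 86262, 98450 and 87296 on days 6, 8 and 10. Rhox5, a homeobox gene, was at least 2.06-fold higher on day 10 than on day 6 and Cst12, a cystatin, 3.00-fold higher, while Gata4 was 2.50-fold lower. The 9 germ cell markers summed to 14917, 17604 and 19664. On day 10, Tex101 of the germ cell membrane was 4.07-fold higher than on day 6, the receptor Ret 2.74-fold higher and the receptor Kit 3.16-fold lower. No marker had a value of 0 on any array, but neither did any other probe set. The lowest intensities were 12.8, 12.9 and 13.8 on days 6, 8 and 10, so a value above 0 is no sign of detection.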

How the data were processed

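Total RNA of rat testis from postnatal days 6, 8 and 10 (1 array per day, with groups taken from the day given by the labels) was labelled with Cy3 on NimbleGen arrays. The authors deposited 1 intensity per RefSeq accession on a linear scale, made with RMA per the submitters' processing notes; its version and settings, and the genome build, were not given in the sources used here. RMA equalises arrays, which can hide a change common to most genes. Intensities in the deposited series table were identical (largest difference 0). The standard error column was not used, since its scale is unstated.

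Values were log2-transformed. Probe sets were matched by unversioned accession to the RefSeq gene table of GRCr8 (9747 of 26419 probe sets named), probe sets of a symbol were averaged (26299 genes), and called genes differed by 2-fold or more. The floor was the higher of the array median and the 95th percentile of 1239 olfactory and vomeronasal receptor probe sets; the median was higher on every array. No test was possible. The number of arrays limits the precision.

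Members, lists (bicarbonate, proton and lactate transport, hypoxia, cell type markers) and alternatives were chosen with earlier results of these data known. Named from each list were up to 2 genes per direction with the largest difference among those 2-fold changed between days 10 and 6, otherwise the largest difference, plus every matched carbonic anhydrase, the 3 nearest patterns to each called member and the tissue markers. Genes outside the rule are marked in the text. One gene that the rule selects is not reported here. Alternatives were median centring, quantile and cyclic loess scaling, other floors, a 1.5-fold threshold, subtraction of the receptor median, and subtraction of a lowess trend with log10 genomic span (fraction 0.3, 3 iterations). List values under other scalings were added after seeing the data. Python 3.11.15, pandas 2.3.3 and statsmodels 0.14.6 were used.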

Additional observations from a re-analysis of the deposited data

How the results depend on the processing

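Of 108 differences of the 6 matched members recomputed under 6 alternatives that could move them, 97 moved by less than the pooled probe set SD, 11 moved by more and 0 called differences changed sign. These include Car3, Car4 and Car5a, which were under the floor on every day. Some differences that were not called did change sign. Car8 between days 10 and 8 ran from -0.12 to 1.27, and Car4 between days 10 and 6 kept its sign in 1 of 6 alternatives. For day 10 against day 6, Car12 ran from -3.61 to -2.80 and Car2 from 0.91 to 1.06. The count of members at least 2-fold changed was 1 in each comparison. With median centring, quantile or cyclic loess scaling it was 2 for day 10 against both earlier days, Car2 being added as higher. Subtracting the span trend or the receptor median gave 2 for day 10 against day 8, again with Car2. Requiring both days above the floor gave 0 in all 3 comparisons, since Car12 was under it on day 10 and Car8 on days 8 and 10. Raising values to the floor gave 0 for day 8 against day 6, where Car8 had -0.09. A 1.5-fold threshold gave 2 in each comparison. The count over all genes was 202 for day 8 against day 6. It was 688 with the floor at the receptors' 95th percentile, 765 with no floor, 87 with both days above it, 106 with values raised to it and 1309 at 1.5-fold. For day 10 against day 8 it was 3116, with 2017 when both days had to be above the floor and 6121 at 1.5-fold. For day 10 against day 6 it was 2982, with 1905 and 6156 under the same settings. Using each probe set on its own changed no level, as each member had 1. No paired analysis was possible because each day had 1 array. Precision near and under the floor is limited by signal over background, which bears on Car8 and on the day 10 level of Car12.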
